A study of Equus caballus with 19 samples.

Results

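The genes described here are 8 genes of extracellular pyrophosphate, phosphate and lysophospholipid metabolism, ENPP1, ENPP2, ENPP5, ANKH, ALPL, NT5E, SPP1 and LPAR1, out of 29196 gene names in each of the 2 deposited tables of equine tenocyte RNA sequencing. They were taken by gene name, and each is listed in both tables. The names were picked with the treatment contrasts of these libraries already known. Their differences between conditions are therefore given as a description, and no single gene among them is given a p-value.

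Tenocytes, the resident fibroblasts of tendon, came from the superficial digital flexor tendon of adult horses of wild-type genotype. Each of 8 primary lines, 1 line per donor, was seeded in a three-dimensional gel of bovine type 1 collagen and harvested at day 14. In the first batch, lines 1 to 5 were cultured without cytokine (control) or with 1 nM interleukin 1 beta (IL-1β), which makes 10 libraries. In the second batch, lines 6 to 8 were cultured as control, with 1 nM IL-1β, or with 1 nM IL-1β and 100 ng/ml interleukin 1 receptor antagonist (IL1Ra), a protein that occupies the IL-1 receptor without activating it, which makes 9 libraries. All gels shared the same serum-containing medium, and no library had IL1Ra alone. The comparisons ask which genes IL-1β alters in tenocytes and whether blocking the receptor keeps them at the control level.

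ENPP1 releases inorganic pyrophosphate from extracellular ATP, and the membrane protein ANKH is needed for cells to release ATP and pyrophosphate. Pyrophosphate holds back the growth of hydroxyapatite crystals, while tissue non-specific alkaline phosphatase, the product of ALPL, hydrolyses it and so removes the inhibitor, and loss of ENPP1 or ANKH is known for mineral deposits in joints, arteries and entheses. ENPP2 belongs to the same enzyme family as ENPP1 but is a secreted lysophospholipase D, autotaxin, that makes lysophosphatidic acid, a lipid that signals through receptors such as LPAR1.

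Summed normalised counts, in units of 1e6, were 43.4 to 49.2 per library in the first batch (median 44.4) and 25.0 to 34.6 in the second (median 28.7). Of 10 listed tendon fibroblast markers, 9 were matched by name, and their summed level was 1054510 to 1820700 in first batch controls and 507175 to 939381 with IL-1β. The second batch sums were 266596 to 850888 in control and 376755 to 582450 with IL-1β. Not all of the list was lower with IL-1β in the first batch, where the median of COL1A1 went from 582578 to 157931 but those of DCN and LUM from 59314 to 117019 and from 65074 to 124624. Like COL1A1, further listed genes had lower first batch medians with IL-1β. SCX went from 1516 to 82.9, MKX from 1702 to 164, FMOD from 7838 to 3318 and THBS4 from 41.6 to 1.05. COL1A1, COL1A2, DCN and LUM were abundant in every library, whereas TNMD, a marker of mature tendon, was at 0 in all first batch libraries. Of the leukocyte markers, CD3E and AIF1 were at 0 in every first batch library, PTPRC was at 3.64 or less and LAPTM5 at 114 or less, and the 5 endothelial markers summed to 17.5 to 91.0. All values are normalised counts, which are not divided by gene length, so levels are compared between libraries and not between genes. In bulk RNA, fewer cells of a type and less RNA per cell cannot be told apart.

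Pyrophosphate production and export genes were lower with IL-1β in all 5 first batch lines. ENPP1 stood at 3806, 3379, 8541, 6185 and 6178 normalised counts in the controls of lines 1 to 5. With IL-1β it stood at 236, 533, 920.0, 1511 and 636 in the same order. Every IL-1β library was below every control library, and the mean went from 5618 ± 2090 to 767 ± 482 (SD, n = 5). Within a line ENPP1 was 4.09-fold (line 4) to 16.1-fold (line 1) lower. Its log2-fold change was −3.04 ± 0.45 (SE), computed like every log2-fold change and log2 ratio here on log2(normalised count + 1). Fold differences of a single gene are plain ratios of normalised counts, without the added 1.

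ANKH showed a difference of like size. Its control levels were 4149.5, 4893, 8678, 9456 and 5710.0 normalised counts in lines 1 to 5. Its IL-1β levels were 267, 829, 1833, 986 and 444. The 2 groups did not overlap, the difference within a line ran from 4.74-fold in line 3 to 15.5-fold in line 1, and the log2-fold change was −3.14 ± 0.47 (SE). Line 1 had the lowest IL-1β level of both ENPP1 and ANKH, and lines 3 and 4 had the highest of ANKH and of ENPP1.

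ALPL went the other way in every line, from starting levels that differed widely between donors. In controls it was at 28548, 26329.9, 356, 2327 and 3608 normalised counts in lines 1 to 5, so that the highest control was 80.3-fold above the lowest. With IL-1β it was at 74317, 40600.2, 10487, 27001 and 78676, a range of 7.50-fold. All 5 lines were higher with IL-1β, but the groups overlapped, since the controls of lines 1 and 2 were above the IL-1β library of line 3 and the control of line 1 was also above that of line 4.

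Within a line ALPL was higher by 2.60-fold in line 1, 1.54-fold in line 2, 29.5-fold in line 3, 11.6-fold in line 4 and 21.8-fold in line 5. The 3 lines with the lowest controls thus had the 3 largest ratios, and lines 1 and 2, which started highest, had the smallest. A ratio is bound to its own control value, so the order of the 5 ratios is not independent of the control levels. Across lines the log2-fold change was 2.97 ± 1.13 (SE), and the SE was 0.65 when the tenocyte line was a block.

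NT5E encodes CD73, which converts extracellular AMP to adenosine and phosphate and is also a surface marker of mesenchymal cells. It was the member with the narrowest spread between control lines in the first batch, at 15204, 15679.5, 18577, 19082 and 12548 normalised counts. With IL-1β it stood at 3279.6, 5213, 9266, 4939 and 5471. Every IL-1β library lay below every control, with a difference of 2.00-fold in line 3 to 4.64-fold in line 1 and a log2-fold change of −1.59 ± 0.24 (SE).

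ENPP5, a membrane member of the ENPP family, was present at far fewer normalised counts. Its controls were 201, 147, 436, 277 and 151, and its IL-1β libraries were 47.1, 94.5, 167, 84.2 and 71.2. It was lower in 5 of 5 lines, by 1.55-fold to 4.27-fold, with a log2-fold change of −1.37 ± 0.39 (SE). The groups overlapped only through line 3, whose IL-1β library was above the controls of lines 2 and 5.

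SPP1, the gene of the acidic bone and matrix protein osteopontin, which binds calcium and integrins, had no common direction. Its controls were 562, 72.2, 67.8, 46.4 and 93.6 normalised counts. With IL-1β the lines stood at 20.6, 37.6, 566, 8.02 and 37.1. SPP1 was therefore 27.3-fold lower in line 1 and 1.92-fold to 5.78-fold lower in lines 2, 4 and 5, but 8.34-fold higher in line 3, and the log2-fold change of −1.26 had an SE of 1.04. It was −0.40 without line 1 and −2.33 without line 3. The control of line 1 and the IL-1β library of line 3 held nearly the same level, far above the rest of their groups.

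**Figure D1:**
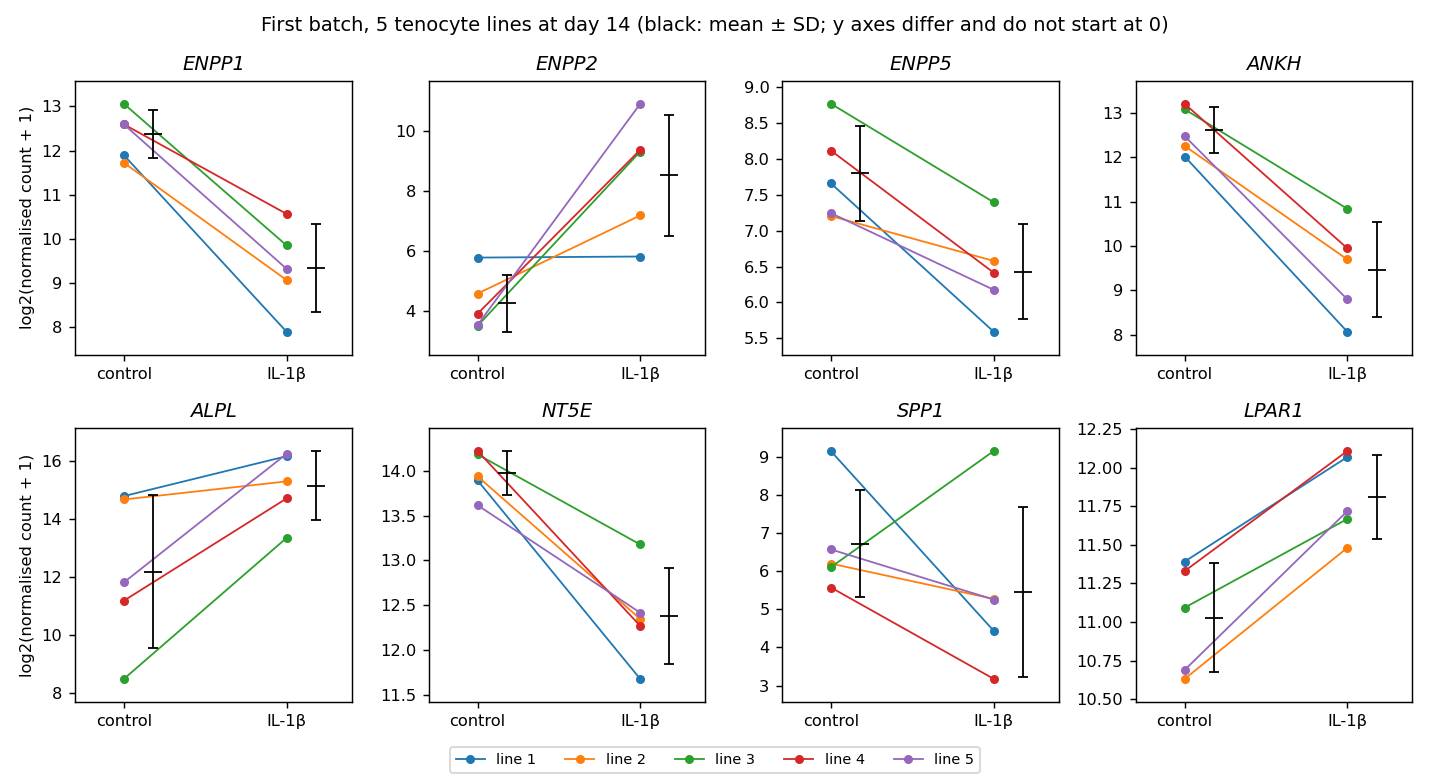
Normalised counts of the 8 genes on the scale log2(normalised count + 1) in the first batch, control and IL-1β, with 1 coloured line per tenocyte line and the mean ± SD in black (n = 5). ENPP1, ANKH, NT5E and ENPP5 were lower and ALPL and LPAR1 higher in 5 of 5 lines, ENPP2 was flat in line 1 only, and SPP1 was higher in line 3 and lower in the other lines.

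The lysophospholipid pair was higher with IL-1β. ENPP2 was close to the detection floor in controls, at 53.7, 22.7, 10.2, 13.9 and 10.5 normalised counts in lines 1 to 5. With IL-1β it was at 55.1, 144, 636, 662 and 1926. The groups were only narrowly separated, because line 1 did not differ between its 2 libraries while the other 4 lines were 6.34-fold (line 2) to 184-fold (line 5) higher.

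The ENPP2 log2-fold change was 4.27 ± 0.88 (SE), the largest of the 8 members in the first batch, and it came with a 35.0-fold range among the IL-1β libraries. In this batch the line with the highest ENPP2 control was the line in which ENPP2 did not differ. The second batch did not repeat this, since line 8 had its highest ENPP2 control (35.0) and was 13.6-fold higher with IL-1β. LPAR1, the widely expressed receptor of lysophosphatidic acid in fibroblasts, had controls of 2686, 1586, 2184, 2574 and 1652 normalised counts. Its IL-1β libraries stood at 4294, 2857, 3252, 4412 and 3369, all above all controls. Its increase of 1.49-fold to 2.04-fold was small but even, with a log2-fold change of 0.78 ± 0.18 (SE).

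Genes with an adjusted p under 0.05 in limma, Benjamini-Hochberg adjusted over all genes tested, and a log2-fold change of at least 1 in size were called differentially expressed (DE). By this call 5 of the 8 members were DE in the first batch, ENPP2 upwards and ENPP1, ENPP5, ANKH and NT5E downwards, where 12.8% of the 14719 genes tested were DE (4.91% higher and 7.9% lower). The members were picked with this contrast in view, so nothing is read from that difference in share. LPAR1 stayed under the fold limit and SPP1 was not called. With the tenocyte line as a block 6 members were DE, ALPL being the added one, against 16.2% of all genes. ENPP5 lost its call when line 1, 4 or 5 was left out, with log2-fold changes of −1.19, −1.29 and −1.44. In the first batch the groups did not overlap for 5 of the 8 members, against 19.5% of all genes. The median log2-fold change of the members was −1.31, and that of all genes tested was −0.0034.

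Within each line, ALPL and the pyrophosphate genes ENPP1 and ANKH differed from control in opposite directions. The ratio of ALPL to ENPP1 was higher with IL-1β by 3.29 (line 2) to 8.09 (line 3) on the log2 scale, with a mean of 6.01 ± 1.95 (SD, n = 5), which is 9.76-fold to 273-fold. The ratio of ALPL to ANKH was higher by 3.18 to 8.13, with a mean of 6.11 ± 1.92 (SD, n = 5). These ratios of 2 genes within a library do not depend on the scaling of the libraries. They combine differences already listed and add no new measurement.

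In the second batch the members were measured again in 3 other lines. ENPP1 controls were 3419, 2729 and 1011 normalised counts in lines 6 to 8. With IL-1β they became 536, 223 and 245, and with IL-1β + IL1Ra 2744, 1418 and 1344. IL-1β libraries lay below all libraries of both other conditions, and IL1Ra libraries lay within the control range.

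The log2-fold change of ENPP1 was −2.77 with IL-1β and −0.28 with IL-1β + IL1Ra, both against control, and 2.49 for IL-1β + IL1Ra against IL-1β (SE 0.53 each). With the receptor antagonist present ENPP1 was 1.25-fold lower than control in line 6, 1.93-fold lower in line 7 and 1.33-fold higher in line 8. NT5E followed the same course. Its controls were 20395, 6767 and 9616, its IL-1β libraries 3349.5, 2509 and 3016, and its IL-1β + IL1Ra libraries 10067, 8348 and 7189.6.

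For NT5E the log2-fold changes were −1.90 with IL-1β and −0.38 with IL-1β + IL1Ra against control (SE 0.38). Line 6, which had the highest control, kept the widest gap with the antagonist, at 2.03-fold below control, while line 7 was 1.23-fold above its control. ENPP5 controls were 461, 117 and 199, against 62.2, 54.2 and 62.7 with IL-1β and 409, 240.2 and 175 with IL-1β + IL1Ra. The 3 IL-1β values of ENPP5 lay within 1.16-fold of each other although their controls spanned 3.96-fold, and the log2-fold changes against control were −1.87 and 0.23 (SE 0.52).

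ANKH and ALPL were dominated by a difference between line 6 and the other lines. ANKH controls were 7808, 422 and 289 normalised counts, so that line 6 was far above lines 7 and 8. With IL-1β they were 2101, 103 and 188, and with IL-1β + IL1Ra 5539, 174 and 237. Each line was lower with IL-1β than in control, by 3.72-fold, 4.08-fold and 1.54-fold, and each was nearer to its control with IL1Ra, at 1.41-fold, 2.43-fold and 1.22-fold below it. The log2-fold changes of ANKH were −1.51 and −0.69 with an SE of 1.78, which fell to 0.30 with the line as a block.

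ALPL had the reverse order, with controls of 270.4, 18338 and 21509.6. It was at 1877, 61635 and 63684 with IL-1β and at 582, 37974 and 50092 with IL-1β + IL1Ra. Against its own control each line was higher with IL-1β, by 6.94-fold, 3.36-fold and 2.96-fold. Each was also higher with the antagonist present, by 2.15-fold, 2.07-fold and 2.33-fold, so that ALPL lay between control and IL-1β in all 3 lines. The log2-fold changes against control were 2.04 with IL-1β and 1.12 with IL-1β + IL1Ra (SE 2.35 without and 0.29 with the line as a block).

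**Figure D2:**
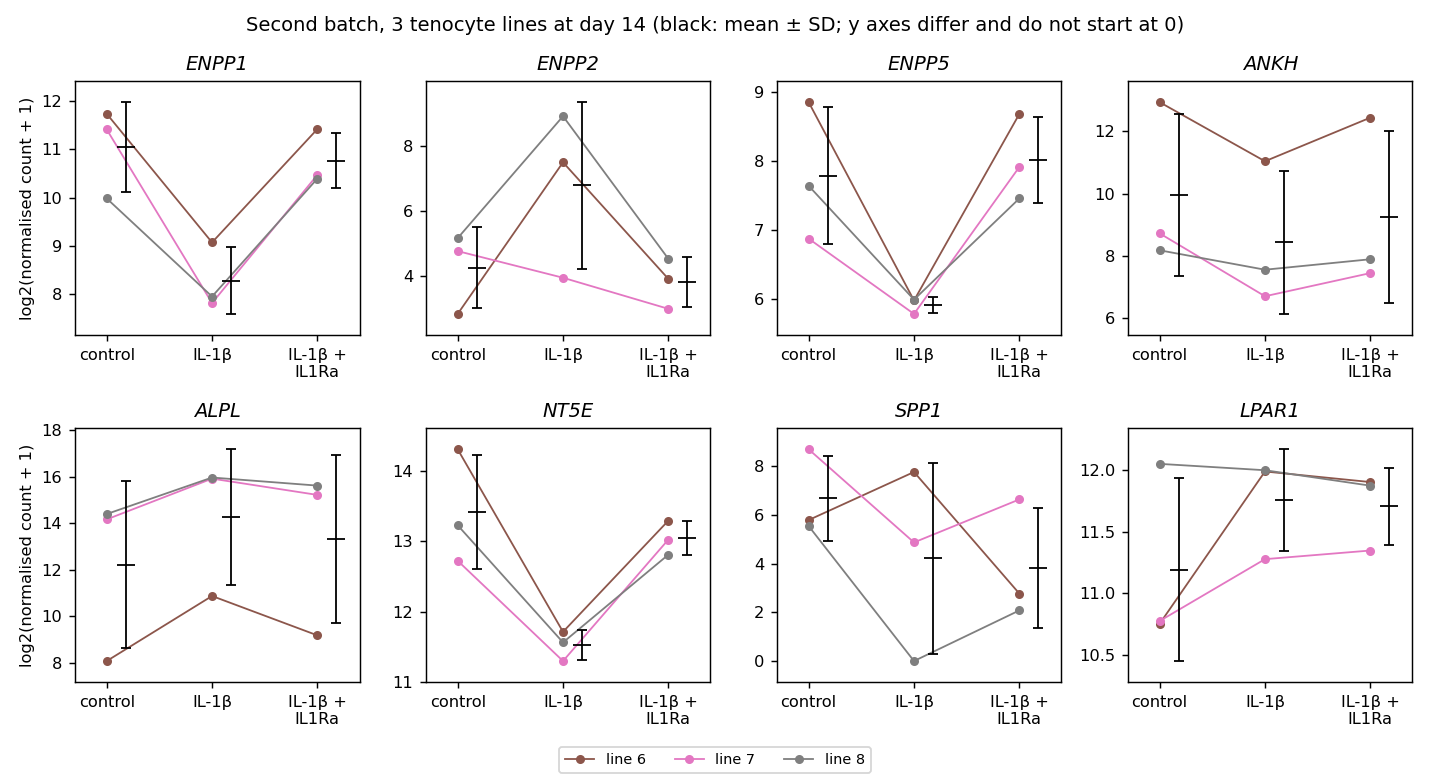
Normalised counts of the 8 genes on the scale log2(normalised count + 1) in the second batch, in control, IL-1β and IL-1β + IL1Ra, with 1 coloured line per tenocyte line and the mean ± SD in black (n = 3). ENPP1, NT5E and ENPP5 have their lowest values with IL-1β in all 3 lines, ALPL has its highest there, and line 6 stands apart in ANKH (high) and ALPL (low) in all 3 conditions.

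ENPP2 was higher with IL-1β in 2 of the 3 second batch lines. Controls were 6.20, 26.3 and 35.0 normalised counts, IL-1β libraries 179, 14.5 and 476, and IL-1β + IL1Ra libraries 14.1, 7.03 and 22.2. ENPP2 was thus 28.8-fold higher in line 6 and 13.6-fold higher in line 8, but 1.81-fold lower in line 7, at levels where few reads decide the ratio. With IL1Ra all 3 lines were at 22.2 normalised counts or less, and the log2-fold changes were 2.52 against control with IL-1β, −0.44 with IL-1β + IL1Ra against control and −2.96 between the treated conditions (SE 1.22). The first of these was 1.46 without line 6 and 4.18 without line 7.

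LPAR1 stood at 1725, 1751 and 4235 in control, 4057, 2479 and 4086 with IL-1β, and 3823, 2602 and 3747 with IL-1β + IL1Ra. Lines 6 and 7 were higher in both treated conditions and line 8 was not. In each line its level with IL-1β + IL1Ra was within 1.09-fold of that with IL-1β alone (log2-fold change −0.05 ± 0.38, SE). SPP1 controls were 54.4, 414 and 45.6, against 217, 28.3 and 0 with IL-1β and 5.83, 98.6 and 3.23 with IL-1β + IL1Ra.

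SPP1 again had no common direction with IL-1β, being 3.98-fold higher in line 6, 14.6-fold lower in line 7 and listed at 0 in line 8. With IL-1β + IL1Ra it was below its own control in all 3 lines, with log2 ratios of −3.02, −2.06 and −3.46. The log2-fold changes against control were −2.47 with IL-1β and −2.85 with IL-1β + IL1Ra, with an SE of 2.01, and the first of them was −4.68 without line 6 and −0.93 without line 8. The condition ranges overlapped in every pairing.

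**Figure D3:**
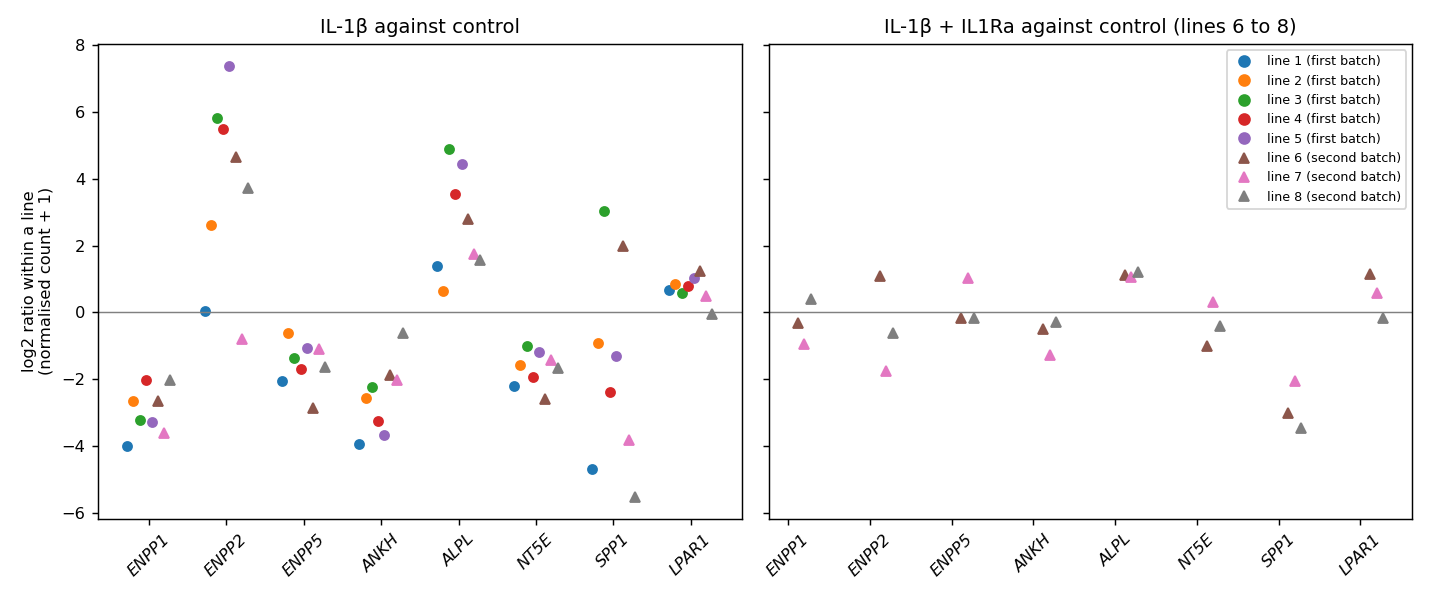
Log2 ratio within each tenocyte line on the scale log2(normalised count + 1), IL-1β against control for lines 1 to 8 (left) and IL-1β + IL1Ra against control for lines 6 to 8 (right), with circles for the first batch and triangles for the second. ENPP1, ENPP5, ANKH and NT5E lie below 0 and ALPL above 0 in 8 of 8 lines on the left, and on the right ALPL stays above 0 and SPP1 and ANKH below 0 in 3 of 3 lines.

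No member was DE in the second batch in the fit without the block. The study, which tested with DESeq2, listed ENPP1, ENPP2 and ENPP5 among the genes that IL-1β changed in this batch. For IL-1β against control limma called 0 of 8, where 0.341% of the 16705 genes tested were DE, and 3 of 8 were at an unadjusted p under 0.05, where 11.4% of all genes were. With the line as a block 5 members were DE, ALPL upwards and ENPP1, ENPP5, ANKH and NT5E downwards, against 5.18% of all genes, and ENPP1 alone was called when line 6 was left out. The groups did not overlap for 3 of 8 members, ENPP1, ENPP5 and NT5E, against 16.4% of all genes. For IL-1β + IL1Ra against control limma called 0 of 8, with and without the block (0 at an unadjusted p under 0.05 without it, against 5.67% of all genes), where 0.012% of all genes were DE (0.251% with the block), and no member had groups that did not overlap, against 11.8% of all genes. For IL-1β + IL1Ra against IL-1β limma again called 0 of 8 in both fits (4 at an unadjusted p under 0.05 without the block, against 2.78% of all genes), where 0% of all genes were DE (0.00599% with the block), and ENPP1, ENPP5 and NT5E did not overlap, against 6.47% of all genes. With the block, 6, 1 and 6 of the 8 members were at an unadjusted limma p under 0.05 in these 3 comparisons. The shares of all genes were 22.2%, 13.4% and 8.38%. The members were picked with these contrasts in view as well, so nothing is read from any of these differences in share. The 3 comparisons share libraries, so their values are given side by side and were not set against each other. The median log2-fold changes of the members were −1.69, −0.33 and 0.39 in this order, and those of all genes tested −0.0084, 0.0095 and 0.0088.

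The ratio of ALPL to ENPP1 in the second batch was higher with IL-1β by 3.60 to 5.46 on the log2 scale, with a mean of 4.81 ± 1.04 (SD, n = 3). With IL-1β + IL1Ra it was higher than in control by 0.81 to 1.99, with a mean of 1.41 ± 0.59 (SD, n = 3). For ALPL to ANKH the means were 3.55 ± 1.26 and 1.81 ± 0.45 (SD, n = 3). The ratio with the antagonist thus lay above control in 3 of 3 lines for both genes, and below the ratio with IL-1β alone in the same 3 lines.

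**Figure D4:**
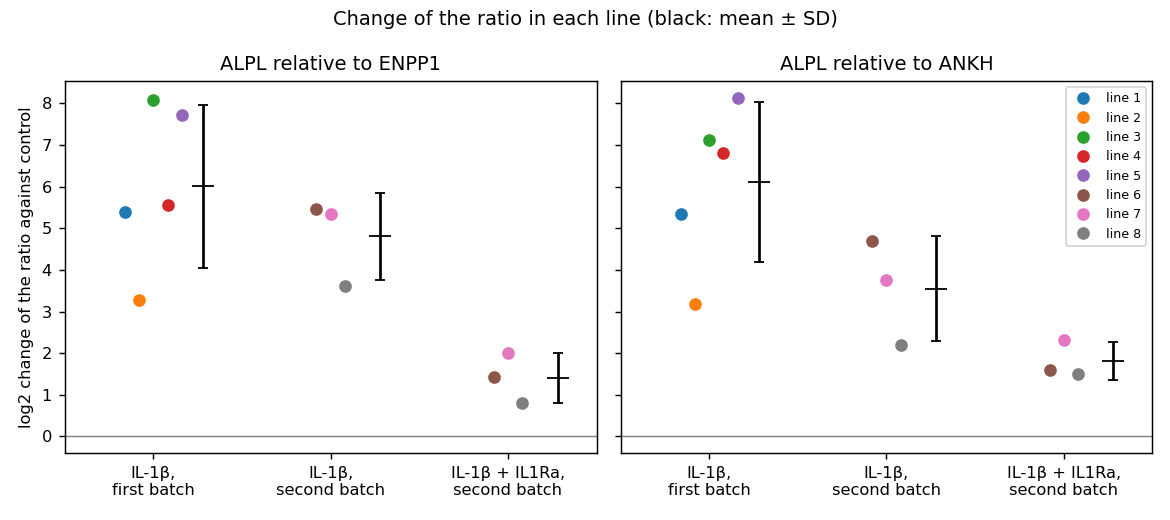
Change of the ratio of ALPL to ENPP1 (left) and of ALPL to ANKH (right) against the control of the same line, on the log2 scale, with 1 point per tenocyte line and the mean ± SD in black (n = 5 and 3). All points lie above 0, from 3.18 to 8.13 with IL-1β in the first batch, from 2.19 to 5.46 with IL-1β in the second, and from 0.81 to 2.32 with IL-1β + IL1Ra.

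The other genes of these pathways were followed through a list of 55 names in 7 roles, chosen by role and not by direction, with earlier results of these data known. In the first batch 41 of them passed the filter on low values, 12 did not and 2 (ADORA3 and BGLAP) were not matched by name. Of the 41 tested, 7 rose, 7 fell and 27 were not DE, which is 14 of 41 against 12.8% of all genes, and 17 were DE with the line as a block, against 16.2% of all genes. Their median log2-fold change was 0.0005, so the list had no common direction.

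Around NT5E, receptors and enzymes of extracellular nucleotides and adenosine moved in both directions. Of 8 tested ectonucleotidases and further ENPP family genes 2 rose and 1 fell, and of 10 adenosine and P2 receptors and nucleotide transporters 4 rose and 2 fell. Of all genes 4.91% were DE upwards and 7.9% downwards. ADORA2A, the high-affinity receptor through which adenosine raises cyclic AMP, rose from 77.6 ± 60.3 to 1362 ± 932 normalised counts (SD, n = 5), with a log2-fold change of 4.29 ± 0.55 (SE, limma adjusted p = 0.000455). ADORA2B, the low-affinity one, rose from 986 ± 496 to 4656 ± 2142 (log2-fold change 2.32 ± 0.40, SE, limma adjusted p = 0.00223). Both were higher in 5 of 5 lines with no overlap.

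ENTPD1, the gene of CD39, which makes the AMP that NT5E uses, rose by 2.60 on the log2 scale, but only from 3.05 to 14.2 normalised counts, and it lost its call without line 2, 3, 4 or 5 (log2-fold change 2.20 to 2.83). ENTPD3, a further nucleotidase, rose by 2.38 and lost its call without line 1, 2, 4 or 5 (1.97 to 2.31). P2RY1, a receptor of ADP, rose by 2.49 to 22.8 normalised counts. P2RY2, a receptor of ATP and UTP, rose by 1.94 and lost its call without line 1, 2, 4 or 5 (1.30 to 2.17).

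SLC29A1, the transporter that carries adenosine into cells, fell from 4711 ± 923 to 1056 ± 547 (SD, n = 5, log2-fold change −2.33 ± 0.38, SE, limma adjusted p = 0.00176). P2RX7, an ATP-gated ion channel, fell from 445 ± 201 to 88.5 ± 21.6 (−2.24 ± 0.33, SE, limma adjusted p = 0.000984). CD38, an enzyme of NAD breakdown, fell by 1.92 on the log2 scale and lost its call without line 1, 2 or 5 (log2-fold change −1.99 without line 1 and −1.85 without line 5). In the same family as ENPP1, ENPP4 stood at 292 in control and 101 with IL-1β (−1.96 ± 0.67, SE, limma adjusted p = 0.0509) and was lower in 5 of 5 lines. It was DE only with the line as a block (limma adjusted p = 0.00703), with the filter at 50 normalised counts (0.0495) and without line 3 (0.00957). No other alternative run called it.

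Among phosphate and mineral genes, 1 of 5 tested genes of pyrophosphate and phosphate handling, 1 of 3 mineralisation regulators and 1 of 4 osteopontin receptors were DE, all downwards, where 7.9% of all genes were DE downwards. In the first of these roles SLC20A2 fell, from 2805 ± 509 to 574 ± 89.9 (SD, n = 5, log2-fold change −2.28 ± 0.15, SE, limma adjusted p = 1.02e-05). SLC20A1, the other sodium-phosphate cotransporter of this family, went from 7965 ± 1925 to 14025 ± 1997 in 5 of 5 lines, and its log2-fold change of 0.84 was under the fold limit. ABCC6, whose activity lets cells release ATP, and PHOSPHO1, a phosphatase of matrix vesicles, were under the filter, at 17.9 normalised counts or less in every first batch library.

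MGP, an inhibitor of calcification in cartilage and vessel walls, fell from 9923 ± 4658 to 1801 ± 1510 (SD, n = 5, log2-fold change −3.06 ± 0.91, SE, limma adjusted p = 0.0302), and the call was lost without line 2, 4 or 5. With a line left out the log2-fold change ran from −3.39 without line 2 to −2.12 without line 1. RUNX2, a transcription factor of bone formation, stood at 945 ± 110 and 819 ± 210 (SD, n = 5, log2-fold change −0.24, limma adjusted p = 0.368). Of 4 osteopontin receptor genes ITGA9 fell by 1.49 on the log2 scale, and CD44, at 28604 in control and 22498 with IL-1β, was not DE (limma adjusted p = 0.146).

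Of the lysophosphatidic acid genes other than ENPP2 and LPAR1, 6 were tested and 1 fell, where 7.9% of all genes were DE downwards. The gene that fell was PLA1A, a phospholipase that makes lysophosphatidylserine. It went from 591 ± 506 to 53.7 ± 24.8 normalised counts (SD, n = 5, log2-fold change −3.12 ± 0.57, SE, limma adjusted p = 0.00298). LPAR3, LPAR4 and LPAR5 reached at most 3.81 normalised counts in any first batch library, and LPAR2 stood at 581 in control and 542 with IL-1β (limma adjusted p = 0.815). LPAR6 was higher in 5 of 5 lines (log2-fold change 1.40 ± 0.56, SE) and was DE only with the line as a block (limma adjusted p = 0.0864 without it and 0.00896 with it).

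PLPP1 and PLPP3, ecto-phosphatases that degrade lysophosphatidic acid, had log2-fold changes of 0.75 (limma adjusted p = 0.0907) and 0.03 (limma adjusted p = 0.953). Among 5 tested genes of the related lipid sphingosine 1-phosphate 1 was DE, where 4.91% of all genes were DE upwards. This gene, the receptor S1PR3, rose from 41.9 ± 34.0 to 863 ± 539 (SD, n = 5, log2-fold change 5.08 ± 1.08, SE, limma adjusted p = 0.00641). It was higher in 5 of 5 lines with no overlap.

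**Figure D5:**
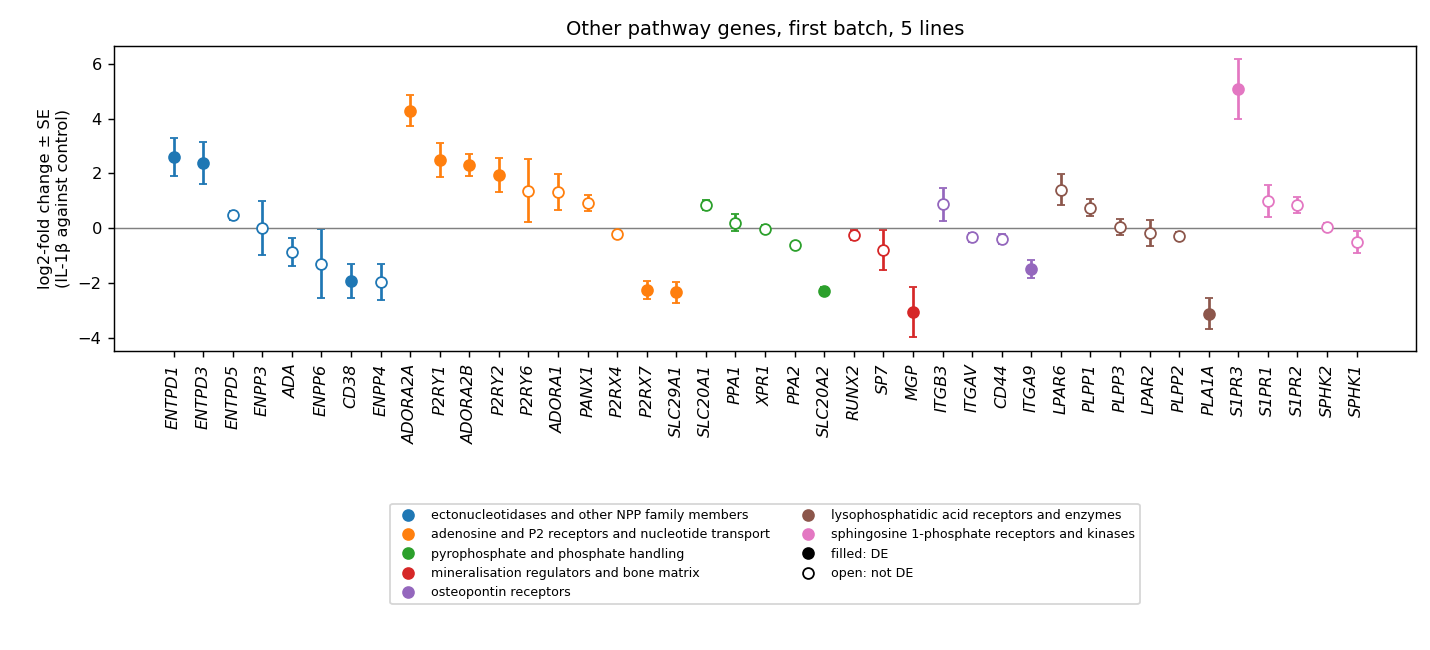
Log2-fold change ± SE on the scale log2(normalised count + 1), IL-1β against control in the first batch (n = 5 lines), for the 41 other pathway genes tested, coloured by role, filled where DE and open where not. The 7 filled points above 0 reach from P2RY2 (1.94) to S1PR3 (5.08), and the 7 below 0 from ITGA9 (−1.49) to PLA1A (−3.12).

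In the second batch 44 of the 55 listed genes passed the filter, and limma called 0 of them for IL-1β against control, where 0.341% of all genes were DE, and 10 were at an unadjusted p under 0.05, against 11.4% of all genes. With the line as a block 3 rose, ADORA2A (4.67), ADORA2B (2.31) and S1PR3 (4.06), and 6 fell, ENPP4 (−2.33), MGP (−4.03), P2RX7 (−2.47), PLA1A (−3.38), SLC20A2 (−1.53) and SLC29A1 (−2.25), all as log2-fold changes, which is 9 of 44 against 5.18% of all genes. Without line 6 the fit without the block called 6 of the 44, against 1.94% of all genes. For IL-1β + IL1Ra against control limma called 0 without the block (3 at an unadjusted p under 0.05, against 5.67% of all genes). For IL-1β + IL1Ra against IL-1β it also called 0 (2 at an unadjusted p under 0.05, against 2.78%), with 0 in the blocked fits of both. In the blocked fits 14, 10 and 7 of the 44 genes were at an unadjusted limma p under 0.05 in the 3 comparisons. All genes had shares of 22.2%, 13.4% and 8.38%.

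In the second batch SLC20A2 stood at 925 ± 391 normalised counts in control, 298 ± 25.3 with IL-1β and 356 ± 148 with IL-1β + IL1Ra (SD, n = 3), below its own control in 3 of 3 lines under both treatments. ADORA2B stood at 566 ± 176, 3028 ± 1613 and 2627 ± 1809, above its own control in 3 of 3 lines under both. P2RX7 stood at 555 ± 389, 81.4 ± 2.63 and 493 ± 231. Of these P2RX7 had an antagonist level within the control range, as ENPP1 did. The other listed genes DE with the block differed in their log2-fold change for IL-1β + IL1Ra against control. It was −0.18 for ENPP4, −2.86 for MGP, −1.69 for PLA1A, −1.16 for SLC29A1, 2.73 for ADORA2A and 2.62 for S1PR3.

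For ENPP1 and ENPP2 the genes with the most similar pattern over the 10 first batch libraries were sought among 14478 genes by Pearson's correlation of log2(normalised count + 1), as a description. ENPP1 was closest to OGN (r = 0.993), C1H1orf198 (0.992) and ECHDC3 (0.991), and over the 9 second batch libraries these had r of 0.68, 0.87 and 0.58. ENPP2 was closest to DHX9 (0.936), WNT9A (0.934) and TBC1D19 (0.928), with r of 0.40, 0.57 and 0.27 in the second batch. The first batch points share the split into control and IL-1β, which raises any r between genes that differ with IL-1β.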

How the data were processed

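Total RNA from 19 cultures of 8 tenocyte lines was sequenced as stranded mRNA libraries. The authors quantified transcripts of EquCab3.0 with Salmon (GC-bias correction), imported gene totals through tximport and scaled them, batch by batch, by DESeq2 1.36 size factors in R 4.2.1. The signal values they deposited are these DESeq2-normalised counts, 1 table per batch, so each batch was tested alone. Low values lay near whole reads for only 56.7 to 67.5% of cases (first batch) and 47.4 to 67.7% (second) at a tolerance of 0.05 read, so whole reads could not be had and count models were not used. The library sums do not give the sequencing depth, so no counting interval is given.

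Genes reaching 10 normalised counts in 5 or more first batch libraries, or in 3 or more of the second, were fitted on log2(normalised count + 1) with limma 3.58.1 in R 4.3.3 (lmFit, eBayes with trend) by condition, with Benjamini-Hochberg adjustment over all genes tested. All 8 members passed. The study's thresholds defined DE, but the study tested with DESeq2 and not limma. It reported more DE genes than limma called here in every comparison, by the widest ratios in the second batch. The cause was not tested. The 3 second batch conditions shared 1 fit. The fit was also run on simulated data that had the same spread between lines for every gene. That run does not show what the fit finds where lines differ more widely, as for ALPL and ANKH. Alternatives were pseudocounts of 0.5 and 5, no filter or 50 normalised counts, other scalings, no trend, a tenocyte line block, only the compared conditions, and each line left out.

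Libraries of a line come from the same donor, so line numbers pair them: deviations from condition means correlated at 0.35 to 0.58 (5 pairs) and 0.54 to 0.79 (9 pairs) within a line and at −0.36 to 0.29 (20 pairs) and −0.62 to 0.25 (18 pairs) between lines.

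The members and lists were chosen with earlier results of these data known. The genes named are the members and, of the other pathway genes, up to 6 rises and 6 falls plus a few genes given whether or not they passed. ENPP4, P2RY2 and ITGA9 were named outside that rule, after their values were seen. A listed leukocyte marker is not reported here.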

Additional observations from a re-analysis of the deposited data

Results flagged for a closer look

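SPP1 in the first batch controls had 1 library far from the others. Line 1 stood at 562 normalised counts and lines 2 to 5 at 72.2, 67.8, 46.4 and 93.6, so that on the scale log2(normalised count + 1) the gap from line 1 to its nearest neighbour was 0.720 of the whole range, above Dixon's 95% value of 0.71 for 5 samples. It was the only 1 of 16 member and condition groups of the first batch past that value, and chance flags about 1 in 20 such groups.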

How the results depend on the processing

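The number of members DE in the first batch stayed within 1.5 times of 5 under every alternative run. In the second batch, IL-1β against control, it was 5 with the tenocyte line as a replicate block and 0 to 1 with a line left out, the 1 being ENPP1 without line 6. The number of other pathway genes DE was 14 in the first batch and 9 to 14 with a line left out (9 without line 2 or line 5), and in the second batch 9 with the block and 0 to 6 with a line left out (6 without line 6). Over all genes in the second batch, the block gave 865, 42 and 1 DE genes in place of 57, 2 and 0, leaving out line 6 gave 324, 36 and 10, leaving out line 7 or line 8 gave 0 and 0 in the first 2 of these comparisons, and a fit of only the compared conditions gave 32 and 0. Without the trend the first of these counts was 34, and with libraries scaled to the same sum the second was 1. The cause was not tested. In the first batch the block added ALPL, ENPP4, ADORA1 and LPAR6 to the DE members and listed genes and removed none. For the second batch its additions are named in the report. CD38 and ENTPD3 were not DE without the filter.

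Signs turned only for genes not called in the fit without the block. In the second batch that fit called no member and no listed gene, so there the statement could not fail. With a line left out, the log2-fold change of LPAR2 in the first batch ran from −0.30 to 0.0234 and that of PLPP3 from −0.083 to 0.20. In the second batch, IL-1β + IL1Ra against control, ENPP4 ran from −0.89 to 0.29 and P2RX7 from −0.36 to 0.67, and P2RX7 was −0.059 when libraries were scaled to the same sum. For IL-1β + IL1Ra against IL-1β, MGP ran from −0.10 to 1.82 and SLC20A2 from −0.21 to 0.45. Among the members, without line 7 ENPP1 (0.047), ENPP2 (0.22) and ENPP5 (−0.18) turned sign for IL-1β + IL1Ra against control, and for IL-1β + IL1Ra against IL-1β SPP1 was 1.92 without line 6 and LPAR1 0.055 with libraries scaled to the same sum. That scaling moved the median of all genes by −0.18 for IL-1β against control in the second batch and by 0.10 for IL-1β + IL1Ra against IL-1β. With 3 lines the second batch leaves a wide spread without the block, and genes of few normalised counts, such as ENPP2 in control, have ratios that rest on few reads.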

Other observations

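Some values of single lines recur between genes and were noticed after the values were seen. In the first batch SPP1 was higher with IL-1β in line 3 only, the line with the lowest ALPL control (356 normalised counts), and in the second batch in line 6 only, again the line with the lowest ALPL control (270.4). ENPP2 did not differ in line 1 (log2 ratio 0.04) and was lower in line 7 (−0.82), the lines with the highest SPP1 control of their batch (562 and 414). These are 2 lines each and were not tested.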
